A study of Homo sapiens with 12 samples.

Results

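Regions of RNA bound by both the wild-type and the 5xA form of AGO2 are described here. They were the regions of the WT list that overlapped a region of the 5xA list by at least 1 base on the same chromosome and strand, together with their 5xA partners. Of 1190 WT regions, 967 met this rule (81.3%, exact 95% Clopper-Pearson interval 78.9 to 83.4), and 944 of 2921 5xA regions were their partners (32.3%, 30.6 to 34.0). The overlap chose the members, so these shares are the background of every count below and not a finding.

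The method was eCLIP, which fixes RNA to a protein with ultraviolet light, pulls the protein down and sequences the RNA that comes with it. HCT116 cells, a human colorectal carcinoma line, were used after 48 h of culture and a UV dose of 400 mJ/cm2. Cells of genotype FH-AGO2_WT carried tagged wild-type AGO2 and cells of genotype FH-AGO2_5xA the tagged mutant, and both were precipitated with an anti-FLAG antibody. There were 12 samples in 6 groups of 2: inputs and immunoprecipitates (IPs) of both genotypes and of AGO2_KO, the knockout control. Each list pools the 2 IP samples of its genotype, and the other 8 samples were not analysed here. The sources used here do not say how the tagged proteins were expressed, whether a line was a single clone or whether replicates were separate cultures. With 1 pooled list per genotype there is no replicate error, the read depth behind a region is unknown, and intervals on shares cover counting of regions only.

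AGO2 is the Argonaute protein that holds a mature miRNA and carries it to matching sites, mostly in the 3' untranslated regions of mRNAs. Bases 2 to 8 of the miRNA, its seed, do most of the pairing, and GW182 scaffold proteins then recruit the enzymes that shorten and decap the mRNA. AGO2 carries a cluster of residues that is phosphorylated by a casein kinase and dephosphorylated by a complex of protein phosphatase 6 with ANKRD52. The 5xA form has alanines in this cluster and cannot be phosphorylated there.

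The shared regions at miRNA genes are shown first, because there each edge can be set against a known RNA. A shared WT region met 21 miRNA genes, and for 17 of them RefSeq (GRCh38.p14) lists the mature arm from the 5' side of the hairpin, the 5p arm. Their mature arms had 11 seeds among them. They are printed 5' to 3' with the seed in capitals, first those of the let-7 family, which restrains growth genes and shares 1 seed over 6 genes:

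hsa-let-7a-5p: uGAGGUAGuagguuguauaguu
hsa-let-7b-5p: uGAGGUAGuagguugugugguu
hsa-let-7f-5p: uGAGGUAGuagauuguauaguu
hsa-let-7i-5p: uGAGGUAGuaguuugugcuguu

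The arms of MIR93 and MIR106B share a seed and are printed with that of MIR18A, which has another. All 3 genes lie in the related clusters of miR-17 and its paralogs:

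hsa-miR-93-5p: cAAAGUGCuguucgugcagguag
hsa-miR-106b-5p: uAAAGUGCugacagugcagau
hsa-miR-18a-5p: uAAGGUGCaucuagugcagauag

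The other arms each have a seed that no other printed arm shares. They include miR-21, abundant in many carcinomas, miR-34a, whose gene is induced by p53, and miR-16, which represses cell cycle genes:

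hsa-miR-21-5p: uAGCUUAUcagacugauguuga
hsa-miR-34a-5p: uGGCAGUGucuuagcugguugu
hsa-miR-16-5p: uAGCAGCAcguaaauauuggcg
hsa-miR-181a-5p: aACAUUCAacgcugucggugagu
hsa-miR-7-5p: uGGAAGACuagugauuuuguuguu
hsa-miR-340-5p: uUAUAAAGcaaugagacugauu
hsa-miR-1225-5p: gUGGGUACggcccagugggggg
hsa-miR-7108-5p: gUGUGGCCggcaggcgggugg

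The hairpins show where the regions lay. Capitals mark the bases that lie inside both the WT and the 5xA region:

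MIRLET7I: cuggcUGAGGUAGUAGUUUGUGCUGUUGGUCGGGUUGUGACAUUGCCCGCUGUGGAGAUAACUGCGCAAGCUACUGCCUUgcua
MIRLET7A1: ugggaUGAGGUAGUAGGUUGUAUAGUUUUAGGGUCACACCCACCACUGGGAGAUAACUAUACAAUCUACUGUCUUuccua
MIRLET7B: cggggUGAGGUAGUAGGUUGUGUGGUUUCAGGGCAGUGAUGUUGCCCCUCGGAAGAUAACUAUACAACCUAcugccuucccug
MIR16-1: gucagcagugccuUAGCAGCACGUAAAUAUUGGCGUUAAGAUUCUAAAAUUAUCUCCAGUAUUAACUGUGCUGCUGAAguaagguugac
MIR34A: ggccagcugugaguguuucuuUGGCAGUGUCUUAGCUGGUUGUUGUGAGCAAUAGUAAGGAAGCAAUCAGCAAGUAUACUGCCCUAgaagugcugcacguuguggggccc
MIR21: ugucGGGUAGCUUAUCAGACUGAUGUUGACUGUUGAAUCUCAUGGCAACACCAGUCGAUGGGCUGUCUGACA
MIR1225: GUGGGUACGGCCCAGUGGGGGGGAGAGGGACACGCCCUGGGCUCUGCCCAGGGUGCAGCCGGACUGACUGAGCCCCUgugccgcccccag
MIR4721: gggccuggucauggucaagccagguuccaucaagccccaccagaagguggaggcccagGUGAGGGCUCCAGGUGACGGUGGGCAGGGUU

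In 15 of the 17 genes with a listed 5p arm the 5' edge of the WT region was the first base of that arm. The 5xA region began on the same base in 12 of the 17, and these 12 were all among the 15. On hg38 the MIRLET7I regions began at 62603691 of chromosome 12, plus strand, in both lists, the MIR16-1 regions at 50049048 of chromosome 13, minus strand, and the MIR34A regions at 9151756 of chromosome 1, minus strand. The exceptions were small in MIR21 (3 bases upstream with WT and 4 with 5xA) and MIR340 (1 base downstream in both). In MIRLET7A2 and MIR1225 the WT edge was exact and the 5xA edge lay 1 and 2 bases upstream, and at MIR93 the 5xA region began 226 bases upstream, inside MIR106B.

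The 3' edges were near the end of the other arm. Of 15 genes with both arms listed, the 3' edge lay within 4 bases of the last base of the 3p arm in 12 with WT and in 11 with 5xA. The MIRLET7I region was 78 bases wide with WT, the exact span from the first base of the 5p arm to the last of the 3p arm, and 75 bases wide with 5xA. In MIRLET7B, whose arms span 76 bases, both regions were 66 bases wide and ended 10 bases before the end of the 3p arm. WT regions at 12 of the 21 genes were 65 or 66 bases wide, and the narrowest WT region of any kind was 63 bases. The part that a lower limit on width has in these edges was not tested.

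MIR93 and MIR106B, which lie within MCM7 on chromosome 7, minus strand, held 1 WT region each, of 65 bases. In the 5xA list a single region of 291 bases, from 100093773 to 100094063, covered both. Its outer edges were those of the WT regions, 100093773 and 100094063.

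MIR1225 and MIR7108, in the protein-coding genes PKD1 and LMNB2, also held WT regions that began on the first base of the 5p arm. These regions stopped 8 and 18 bases before the end of the 3p arm and the 5xA regions 13 and 22 bases before it. The remaining 4 genes have no 5p arm in the table. At MIR1296, inside JMJD1C, both lists had the same region of 66 bases. At MIR4721 only 31 of 80 bases of the WT region lay in the gene, at its 3' end. The MIR614 region was 185 bases wide with WT and 415 with 5xA, and the MIR6821 region 71 and 118. Their host genes are GPRC5A and PIM3, and in both the added 5xA bases lay mostly upstream of the miRNA gene.

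**Figure D1:**
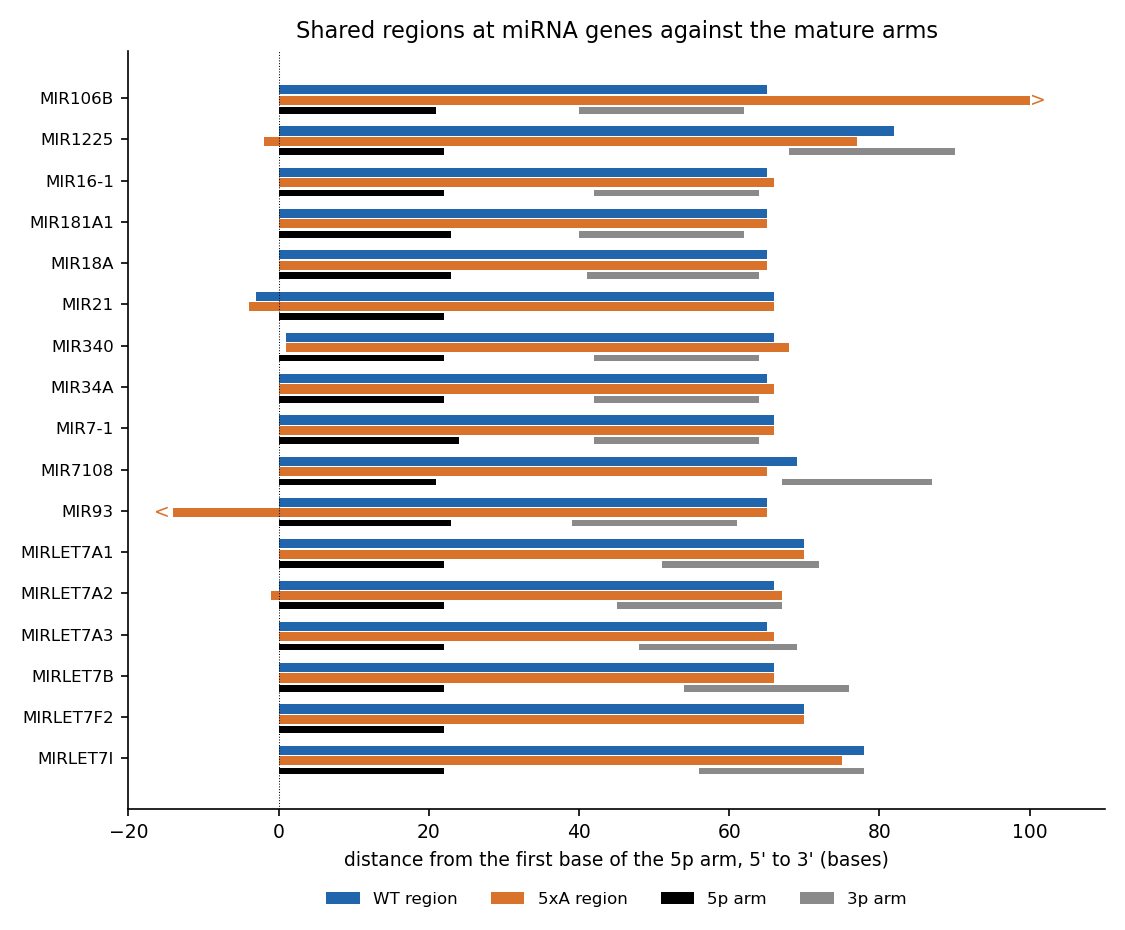
WT regions (blue), 5xA regions (orange) and mature arms (black for 5p, grey for 3p) at the 17 miRNA genes with a listed 5p arm, on a horizontal axis of bases from the first base of that arm; < and > mark a 5xA region that runs off the axis. WT bars start at 0 in 15 genes and 5xA bars in 12, and MIR93 and MIR106B share 1 long 5xA region.

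Other small RNA genes held 20 shared WT regions, at 13 copies of snaR-A, the vault RNA genes VTRNA1-1, VTRNA1-2, VTRNA1-3 and VTRNA2-1, the Y RNA gene RNY4 and 2 tRNA genes. Vault and Y RNAs are short polymerase III transcripts, and snaR-A is a family of near-identical small noncoding RNAs. RNY4 (148963315 to 148963406 on chromosome 7) and VTRNA2-1 (136080499 to 136080601 on chromosome 5) had the same start and end in both lists. The region of VTRNA1-3 did too, at 90 bases, while that of VTRNA1-1 was 65 bases with WT and 76 with 5xA from the same first base. Across the snaR-A copies, whose genes are 121 or 122 bases long, WT regions had a median of 100 bases (83 to 112) and 5xA regions of 93 (79 to 101), and the 5xA region was the narrower at 10 of 13 copies. The sources used here do not say how reads were divided among the copies, so these 13 may not be separate measurements.

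All members fell into 914 groups of overlapping regions, of which 847 were exclusive pairs, a WT and a 5xA region that met each other and nothing else. The pairs held 87.6% of the shared WT regions. A single 5xA region spanned several WT regions in 37 groups (81 WT regions), a single WT region met several 5xA regions in 24 groups (48 5xA regions), and 6 groups had several of both. The rule has a threshold of 1 base. Just inside it, the F2RL1 regions overlapped by 3 bases, those of DOHH by 5, ZFTA by 6 and CAPN1 by 9, and a pair at 63486908 of chromosome 20 with no annotated gene by 12. Just outside it, 2 bases separated the regions in MAZ, 10 in NACC1, 10 in ATOSB, 12 in SETD5 and 13 on a contig of chromosome 6. Few members were near the threshold, since 6 of the 967 overlapped by 20 bases or fewer, and 10 of the 223 WT-only regions lay within 20 bases of a 5xA region.

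Both lists covered 137681 bases in common. That was 91.6% of the bases of the shared WT regions and 76.4% of the bases of their partners. In the exclusive pairs the median overlap was 105 bases (quartiles 80 and 153.5), and the median share of a region that its partner covered was 98.8% for WT and 85.0% for 5xA. The overlap was at least 50% of both regions in 751 pairs (88.7%) and at least 90% of both in 226.

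In the exclusive pairs the 5xA region was usually the larger. This did not hold for the whole lists, whose median widths were 114 bases with WT and 104 with 5xA. Shared regions were wider than the others in both lists (medians 121 and 91 bases with WT, 145 and 93 with 5xA). The median width in the pairs was 118 bases with WT (quartiles 90 and 167.5) and 142 with 5xA (100 and 209.5), and the 5xA region was wider in 566 pairs, narrower in 257 and equal in 24. Pairs went the other way on contigs (4 wider with 5xA, 16 narrower) and at other small RNA genes (4 and 11). Of the 24 shared WT regions on contigs 18 were on alternate contigs of chromosome 6, so the contig pairs may not be separate measurements. Over all pairs the added width was split evenly between the sides. The 5xA region began upstream of the WT region in 515 pairs and ended downstream of it in 509, with a median extension of 4 bases at the 5' edge (quartiles -2 and 25) and 3 at the 3' edge (-5 and 22). In 392 pairs the WT region lay inside the 5xA region, and in 131 the reverse, counting the 14 pairs with equal edges in both. Both edges of the 5xA region lay upstream in 174 pairs and downstream in 164, and the median shift of the midpoint was 0 bases. The threshold of each list is unknown and the pairs were chosen by overlap, so the width difference is a description with no test.

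**Figure D2:**
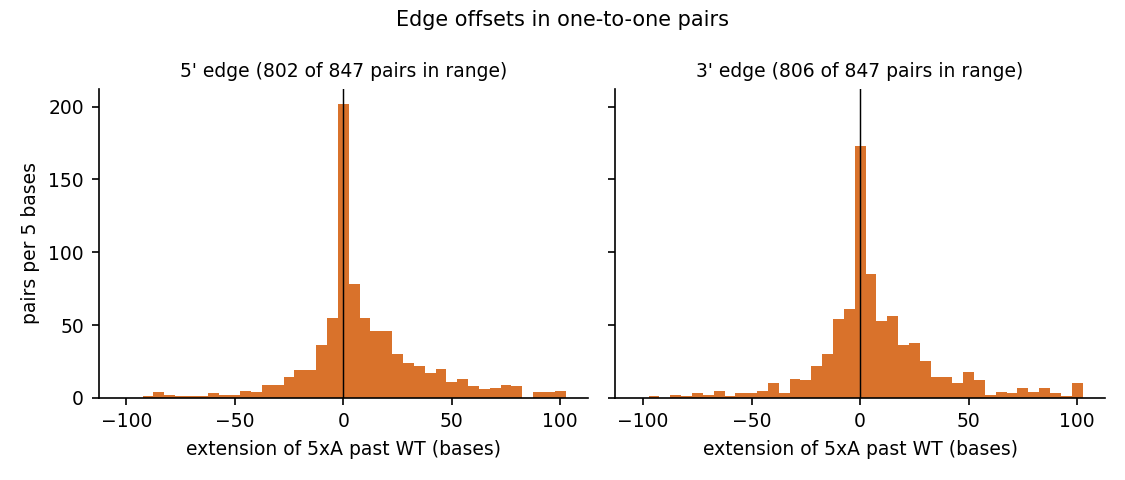
Extension of the 5xA region past the WT region at the 5' edge (left) and the 3' edge (right) in the 847 exclusive pairs, as pairs per 5 bases; negative values are 5xA edges inside the WT region. Both distributions peak at 0 (202 pairs within 2 bases at the 5' edge and 173 at the 3' edge) and have a longer tail to the right.

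The ratio of widths was higher for narrow WT regions. The WT width sets these groups and is also the denominator of the ratio, so some fall with width is built in. Where the WT region was under 80 bases, the median ratio of 5xA to WT width was 1.19, and 97 of 126 pairs were wider with 5xA. From 200 bases up the median ratio was 1.04, and 88 of 142 were wider with 5xA. The narrowest shared region was 63 bases with WT and 51 with 5xA. Narrow WT regions stood close to the narrow end of the WT list, which was also 63 bases. The whole 5xA list reached down to 42 bases, with 104 of its 2921 regions under 63. The part of these lower ends in the ratio was not tested.

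Edges lay closer together at miRNA genes than in protein-coding genes. The median distance between the 5' edges of a pair was 0 bases at miRNA genes (19 pairs), 1 at other small RNA genes (20 pairs) and 14 in protein-coding genes (735 pairs, quartiles 4 and 36.5). At the 3' edge the medians were 1, 4.5 and 14 bases. In the other classes the medians at the 5' and 3' edges were 5 and 21.5 bases in lncRNA genes (14 pairs), 19 and 3 in pseudogenes or other genes (15 pairs), 6 and 6 outside annotated genes (22 pairs) and 4.5 and 8 on contigs (22 pairs). Both edges were within 2 bases in 13 of 19 miRNA pairs, 5 of 20 other small RNA pairs and 24 of 735 protein-coding pairs. Of the 14 pairs with the same start and end, 7 were at miRNA genes, 4 at other small RNA genes, 2 on contigs and 1 in a protein-coding gene. These differences were not tested, because the members were chosen by overlap in the same lists.

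**Figure D3:**
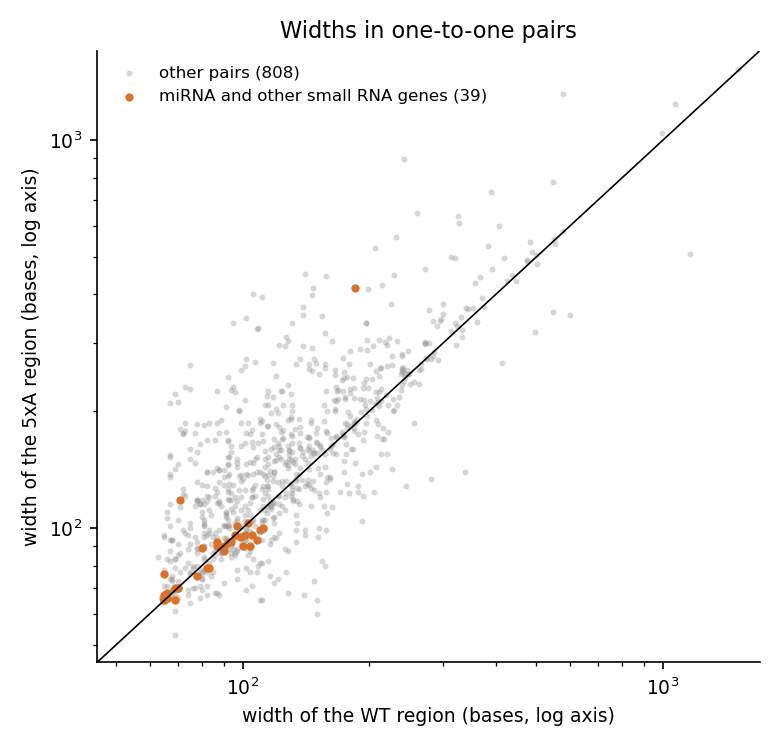
Width of the 5xA region against that of the WT region in the 847 exclusive pairs, both on log axes in bases, with pairs at miRNA and other small RNA genes (39) in orange and the other 808 in grey. The line marks equal width, with 566 pairs above it and 257 below, and the orange points lie close to it apart from MIR614 (185 and 415 bases) and MIR6821 (71 and 118).

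The pairs with the largest overlap lay in mRNAs. ZFP36, which encodes an mRNA-destabilising protein that binds AU-rich elements, had a region of 1508 bases with WT and 1521 with 5xA on chromosome 19, from 39407755 and 39407743. Its paralog ZFP36L1 had 1067 and 1239 bases in 1 pair, with all 1067 in common. The growth factor gene IGF2 had 578 and 582 bases, 578 of them shared, in a stretch that INS-IGF2 also spans. HMGA2, the gene of a chromatin protein, had 997 and 1043 bases at its upstream end, where RPSAP52 also lies, and PLEC, a cytoskeletal linker, had 578 bases inside a 5xA region of 1315.

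The most unequal pairs went both ways. PPP1R15B, a regulatory subunit of the phosphatase that acts on eIF2alpha, had 106 bases with WT inside 400 with 5xA (3.77 times). The MIDN pair of 242 and 895 bases extended by 624 bases at its 3' edge, and the NACC1 pair of 75 and 263 bases extended at both edges. An MKNK2 pair had 95 and 337 bases (3.55 times) and a LOC128125822 pair 111 and 393 (3.54 times). The smallest ratio was in DOHH, with 150 bases with WT and 60 with 5xA (0.40), followed by NORAD, then PLAU, the gene of the protease urokinase, with 150 and 65 (0.433), EREG, and ONECUT3 with 281 and 134 (0.477). In EREG, which encodes an EGF receptor ligand, the WT region had 1157 bases and the 5xA region 508, starting 662 bases downstream. In the lncRNA NORAD, a decoy for Pumilio proteins, a WT region of 338 bases enclosed a 5xA region of 139. A 5xA region was at least 2 times as wide in 71 pairs, and a WT region in 7.

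Merges mostly joined neighbours across short gaps. In the 37 groups in which 1 5xA region spanned several WT regions, 32 held 2 WT regions and 3 held 3, and the gap between WT neighbours had a median of 19.5 bases (1 to 296), with 24 of 44 gaps at 20 bases or fewer. In the 24 groups split in the 5xA list the gap had a median of 9 bases (2 to 54). CDKN1A, the gene of the CDK inhibitor p21, had 4 WT regions of 96, 190, 289 and 146 bases where the 5xA list had 1 of 778, and both lists began at 36685912 of chromosome 6. MKNK2, whose product phosphorylates eIF4E, had WT regions of 82, 114, 97 and 139 bases in transcript order with gaps of 1 to 20 bases, inside a 5xA region of 486. CLDND1 and STC2 each had 3 WT regions to 1 5xA region.

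Boundaries also moved within continuous stretches. At the downstream end of HMGA2 the WT list had 3 regions of 405, 1010 and 952 bases, separated by 2 and 5 bases, and the 5xA list 2 of 2009 and 312 bases, separated by 27. Nearly the same stretch was covered, 2367 bases with WT and 2321 with 5xA, with 2313 in common. HAS3, which encodes a hyaluronan synthase, had 4 WT and 2 5xA regions in a span of 693 bases. The amino acid transporter gene SLC7A5, EIF4G1 and R3HDM4 had 2 and 2. The split in the 5xA list was seen in SPG7, ITPRID2, DDIT4, IER3 and NACC1, each with 1 WT and 2 5xA regions.

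**Figure D4:**
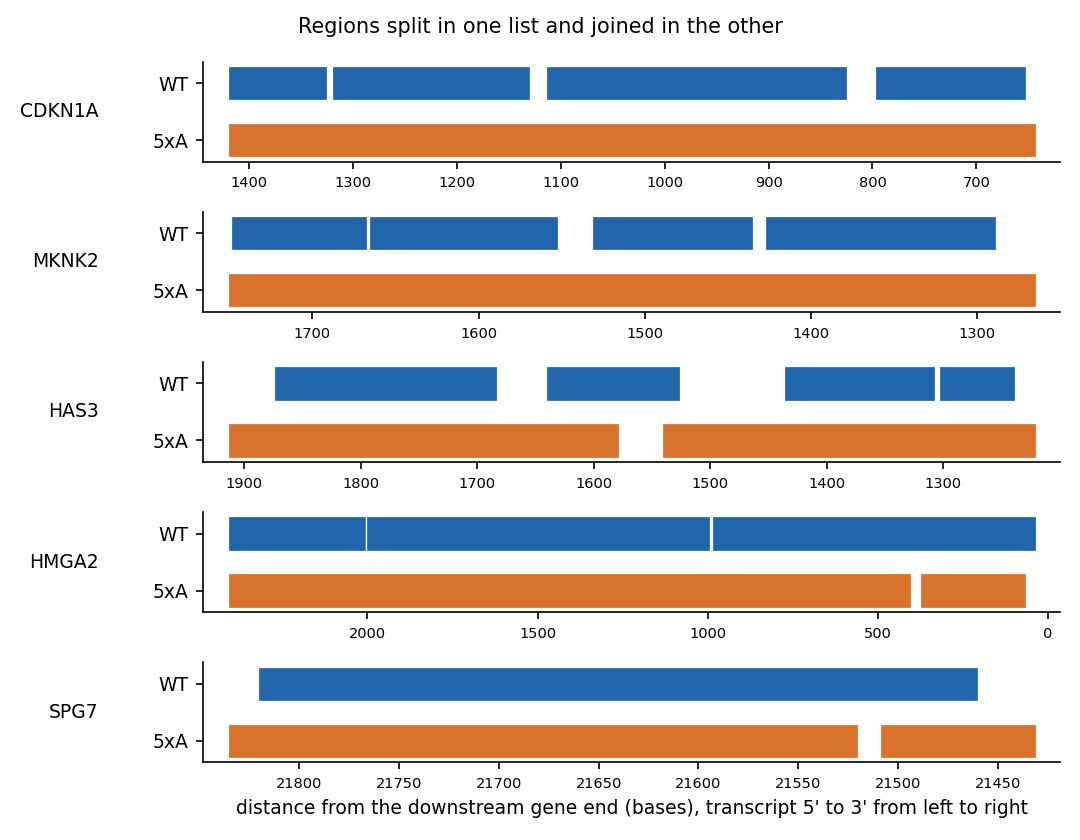
Regions of the WT list (blue) and the 5xA list (orange) in 5 groups with merges, on a horizontal axis of distance from the downstream gene end in bases, with the transcript running left to right. CDKN1A and MKNK2 have 4 WT regions to 1 5xA region, HAS3 4 to 2, HMGA2 3 to 2 and SPG7 1 to 2.

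The shared regions lay in 599 of the 716 genes with any WT region (83.7%), of which 549 were protein-coding and 19 lncRNA genes. A region at a small RNA gene was given here to a protein-coding or lncRNA gene that spans it. The counts therefore include miRNA host genes such as HUWE1, MIR17HG and MIR34AHG, and LOC105378198, whose regions are those of VTRNA1-1, VTRNA1-2 and VTRNA1-3. By the class a region met, 14 shared regions were in lncRNA genes. The gene strand was known for 15842 of 20037 protein-coding genes, and a region was not given to a gene known to lie on the other strand. Using the strand changed the gene of 17 shared regions. Among these, 3 regions in the span of both PKD1 and TSC2 went to PKD1, and the shared region in the span of CXCR5 went to BCL9L. The 4 shared regions of PKD1 lay 51 to 1495 bases from its downstream end, and the farthest was that at MIR1225. Of the 599 genes, 435 held 1 shared WT region, 96 held 2, 31 held 3 and 37 held 4 or more, and these 37 genes held 201 of the regions. Of the same 599 genes, 210 held 2 or more WT regions, shared or not. Every WT region was shared in 138 of these 210, all of which held a shared region by choice. The 81.3% of all WT regions counts single regions and is no background for whole genes, where several regions must all be shared. Further 5xA regions without a WT partner were held by 309 of the 599. Neighbouring shared regions of a gene were a median of 240 bases apart (quartiles 46.5 and 709.25).

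The 10 protein-coding genes with most shared regions held 6 to 9 each. MIDN, whose product takes proteins to the proteasome, and MKNK2 held 9 shared regions of 9 WT regions each. In MIDN, on the plus strand of chromosome 19, all 9 were exclusive pairs, and in 5 both edges agreed within 6 bases, such as 551 against 555 bases from 1257928 and 162 against 163 bases from 1258910. Together the MIDN regions covered 2466 bases with WT and 3177 with their partners, and the MKNK2 regions 1395 and 1743.

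ANKRD52, a subunit of the phosphatase complex that acts on AGO2, had 9 of 10 WT regions shared with 8 5xA partners. They lay 668 to 5104 bases from the downstream end of a gene of 20578 bases on the minus strand of chromosome 12. The pair nearest the end had 98 bases with WT and 125 with 5xA, and the widest 313 and 322, with 299 in common. A pair of WT regions of 111 and 153 bases lay inside a single 5xA region of 283, and the farthest pair, of 158 and 225 bases, had all 158 in common. The DNA demethylation gene TET3 also had 9 of 10 shared, all in exclusive pairs with WT widths of 73 to 150 bases. The pairs lay at least 27472 bases from the annotated end of TET3 (73983631 to 74135498 on chromosome 2). Of the 9, 7 lay between 27472 and 33217 bases from it, and the others 87515 and 148941 bases. A further 8 5xA regions of TET3 had no WT partner.

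SLC7A5, the H3K27 demethylase gene KDM6B, ZC3HAV1L, HAS3 and the repressor gene HIC2 held 7 shared WT regions each. In SLC7A5 all 7 regions of each list were shared, 1519 bases with WT and 2147 with 5xA, within 2722 bases of the downstream end. In KDM6B 4 regions lay 5601 to 7358 bases from the end and 3 within 884 bases. HIC2 had 2 WT regions without a partner, and its last shared region was wider with WT, 495 bases against 320. IGF2 had 6 shared regions of 6, in a group of 3 that lay 132 to 731 bases from the downstream end and a group of 3 that lay 9331 to 9955 bases from it. In the first group WT regions of 357 and 200 bases met a single 5xA region of 506. In the second the pairs had 102 and 146, 250 and 235, and 292 and 271 bases.

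Genes of the silencing machinery were among the targets. Of 42 such genes, 8 held a shared region, 19.0% beside 2.74% of all 20037 protein-coding genes, expressed or not. These 8 were all of the 42 that had a WT region. Among 32 housekeeping genes the share was 15.6%, so 19.0% is not read as particular to silencing genes. TNRC6A, a GW182 scaffold gene, had 5 shared regions of 5, in pairs of 71 and 77, 286 and 284, 115 and 226, 104 and 87, and 83 and 186 bases. DICER1, which encodes the nuclease that releases miRNA duplexes, had 4 of 4, and TNRC6C 3 of 3. The DICER1 pairs fell into a set near the downstream end, of 87 and 143 and of 213 and 259 bases, and a set that lay 17375 and 17667 bases from it, of 207 and 254 and of 158 and 131 bases. AGO2 itself, with regions on the minus strand of chromosome 8, had 2 of 3 WT regions shared, with overlaps of 68 bases (WT 140520949 to 140521121) and 118 bases (WT 140522206 to 140522363). Of 13 genes of the AGO2 phosphorylation cycle 1 held shared regions, ANKRD52.

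The lists that follow stand beside all protein-coding genes, of which 2.74% held a shared region, as did 549 of the 659 with any WT region. These lists and that of the silencing machinery were chosen with earlier results of these data known. A share above 2.74% is therefore no finding about a list. Among reported targets of let-7, 15 of 38 held a shared region, and these were the 15 with a WT region. HIC2 had 7, HMGA2 and the cyclin gene CCND1 5 each and DICER1 4. In CCND1 the first pair was wider with WT, 547 against 361 bases, and the last wider with 5xA, 96 against 224. Of 33 reported miR-17 family targets 11 held shared regions, with CDKN1A and E2F3 at 6 each, CCND1 at 5 and PKD1 at 4. Of the PKD1 regions 1 is that at MIR1225, which lies on a miRNA hairpin. Of 22 reported miR-21 targets 4 did, with BTG2 at 6 shared regions, the GTPase gene RHOB and the deubiquitinase gene YOD1 at 3 each and CDC25A at 1. TGFBR2, which is in both of these lists, had a WT region without a 5xA partner.

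Of 26 p53 targets 10 had a WT region and 9 held shared regions, among them BTG2, CDKN1A, the p53 ligase gene MDM2 (4 of 5 WT regions) and the BH3 gene BBC3 (4 of 4). The MDM2 regions lay 9312 to 10824 bases from the annotated gene end. PERP had a WT region and no shared one. Of 36 cell cycle genes 10 held shared regions, the same 10 that had a WT region, and of 29 immediate early genes 13 of 14 with a WT region did, including SPRY4 (4 of 7), DUSP2 (3 of 3), DUSP5 (3 of 3) and FOSL1 (2 of 2), while DUSP6 had a WT region and no shared one. Of 23 genes of CCCH and other mRNA decay factors 6 of 7 with a WT region did, with ZC3HAV1L at 7, BTG2 at 6, ZFP36L1 at 4 and ZFP36 at 1, while TOB2 had a WT region and no shared one. These counts stand beside the same 2.74% of all protein-coding genes and 549 of 659 with a WT region. Several genes stand in more than 1 of these lists, and no list was tested.

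Housekeeping genes and cell type markers were set beside these lists. Of 32 housekeeping genes 5 (15.6%) held 1 shared region each. Among them were PGK1 (498 and 507 bases), GAPDH (238 and 249), RPLP1 (203 and 201) and FTL (104 and 98). PKM had a WT region and no shared one. Of 18 colorectal epithelial markers 1, CLDN4, held shared regions, 716 bases in 2 WT regions inside 835 bases of 1 5xA region. Of 14 fibroblast markers COL1A1 had 2 shared regions, and of 15 blood markers none had a region. A region list records binding and not level, so the cell type could not be checked from it.

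Most shared regions lay near the downstream ends of genes. In protein-coding genes longer than 10 kb, with the region's strand giving the direction, 571 of 686 shared WT regions (83.2%, exact interval 80.2 to 86.0) had their nearest edge in the last 5 kb. Regions spread evenly over the whole gene span, introns included, would give 17.8%. That is not the share for an even spread along spliced mRNA, which could not be given without exons. Of the 5xA partners 553 of 671 did (82.4%, 79.3 to 85.2). The median distance from the region's nearest edge to the gene end was 1493 bases with WT and 1489 with 5xA, and 260 of the shared WT regions lay within 1 kb. The upstream 5 kb held 15 of the 686 (2.19%), and 100 lay in neither window. No exon annotation was used, so 3' untranslated, coding and intronic positions were not separated. Regions at miRNA hairpins inside protein-coding genes, such as MIR21 in VMP1 and MIR1296 in JMJD1C, were included.

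WT regions without a partner lay in the last 5 kb less often. So that each gene counted once, the test took genes with exactly 1 WT region, miRNA host genes such as VMP1 and JMJD1C included. In these, 220 of 266 shared regions (82.7%, 77.6 to 87.1) and 51 of 83 WT-only regions (61.4%, 50.1 to 71.9) lay within 5 kb of the gene end. The odds ratio was 2.99 (95% interval 1.67 to 5.34), and the exact p by a two-sided Fisher test was 0.000126. The test compares regions of 1 pooled list and not replicates, and a like difference was known from earlier work on these lists. Over all regions in protein-coding genes longer than 10 kb, however many a gene held, the share was 71.1% of 149 for WT-only regions, and for 5xA regions without a WT partner 78.2% of 1445. In the single-region genes shared regions were also wider (median 110.5 against 87 bases). Among regions of 80 to under 120 bases the shares were 85.8% of 120 and 60.5% of 43 (exact test, p = 0.00088), and under 80 bases 65.9% of 44 and 58.6% of 29 (exact test, p = 0.622). With shared defined by an overlap of at least 50% of both regions, they were 81.9% of 232 and 69.2% of 117 (exact test, p = 0.00955).

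**Figure D5:**
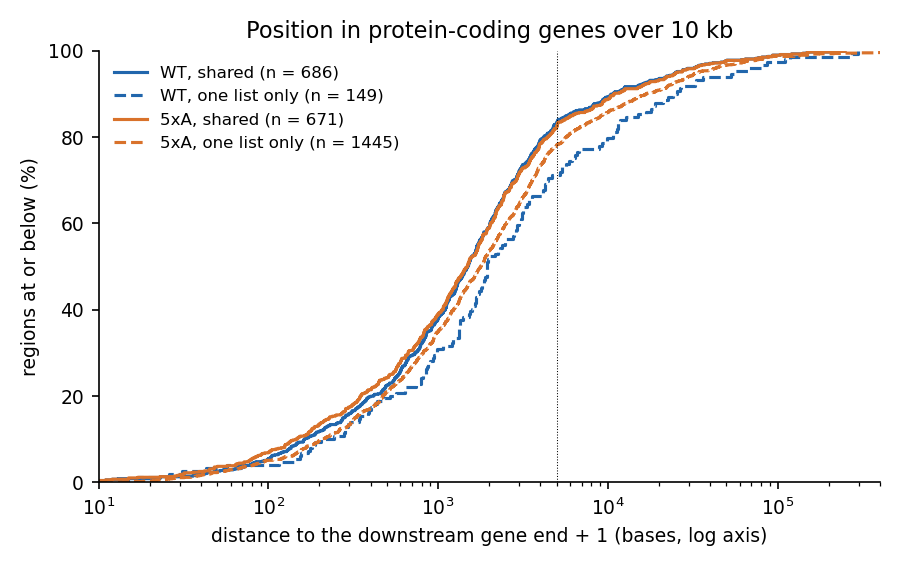
Cumulative share of regions (percent) by distance to the downstream gene end (bases plus 1, log axis) in protein-coding genes over 10 kb, for WT (blue) and 5xA (orange), shared (solid) and found in 1 list only (dashed); the dotted line marks 5 kb. The solid lines lie on each other, reaching 83.2% and 82.4% at 5 kb, and the dashed WT line is below them at 71.1%.

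A few shared regions lay deep inside genes or at their starts. The farthest from a downstream end were in PCCA (249453 bases, with 87 bases at 100280896 of chromosome 13), in JMJD1C at MIR1296 (205743 bases), in TANC1 (152477), in TET3 (148941) and at the upstream end of HMGA2 (140910). The TET3 region lay 2830 bases from the gene start. Of all shared WT regions 10 met the window from 250 bases before to 50 after a gene start on the same strand, 1.03%, against 3 of 223 WT-only regions. The start was not always that of the gene the region was given to. A region of NRBP1 met the window of KRTCAP3, and a region of H4C16 that of LOC105369669. These counts cover only genes whose promoter the RefSeq table lists. HMGA2 is not listed there, so its region, which spans the gene start at 65824460, is not among the 10. PGK1, a glycolytic enzyme gene, had 300 of its 498 bases in that window, and HIC2 35 of 77.

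Outside protein-coding genes the members were few. By the gene class a region met, with small RNA genes taken first, 849 of the 967 were in protein-coding genes, 21 at miRNA genes, 20 at other small RNA genes, 14 in lncRNA genes, 17 in pseudogenes or other genes, 22 outside annotated genes and 24 on contigs. The share of WT regions that had a partner was 100% of 21 at miRNA genes and 100% of 20 at other small RNA genes (exact lower bounds 83.9% and 83.2%), 81.9% of 1036 in protein-coding genes (79.5 to 84.2) and 70.0% of 20 in lncRNA genes (45.7 to 88.1), beside 81.3% overall. It was 81.0% of 21 in pseudogenes or other genes (58.1 to 94.6), 66.7% of 36 on contigs (49.0 to 81.4) and 61.1% of 36 outside annotated genes (43.5 to 76.9). The classes were not tested against each other, since the overlap that chose the members is the measure. NORAD and OIP5-AS1, a lncRNA known to bind miR-7, held 3 shared regions each, of 4 and 3 WT regions. Of the 24 on contigs 18 were on alternate contigs of chromosome 6 and were given to no gene.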

How the data were processed

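The 2 deposited files are region lists without a header, 1 per genotype, each pooling 2 IP samples per the sample descriptions in the labels. Each holds chromosome, start, end, name, score and strand, and the deposited score is 0 in every row, so regions could not be ranked. Per the submitters' processing notes the authors used cutadapt 1.9.1, TopHat2 and the build hg38. The sources used here do not give the peak caller, its threshold, the merging rule, or how inputs and knockout were used.

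Overlaps were counted in Python 3.11.15, checked against bedtools 2.31.1 and tested on simulated data. Starts are printed counted from 1. Genes came from RefSeq (GRCh38.p14, the coordinates of hg38), protein-coding first, then lncRNA, then other genes, and the shortest span among several. Genes known to lie on the opposite strand were left out, a step added after seeing the tables. Hairpins were listed for 18 of 21 miRNA genes, with 36 mature arms. Distances run from the region's nearest edge to the gene end. The position test was Fisher's exact test (scipy 1.17.1). Values given without a test are descriptions.

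Members and the 13 gene lists were chosen with earlier results of these data known. Named items were the 10 genes with most shared regions, up to 5 groups of each kind of merge, all shared miRNA genes, up to 4 genes a list, the 5 pairs with most overlap, the 5 shared regions with least, the 5 WT-only regions nearest a 5xA region, the 5 pairs at each end of the width ratio, and the 5 farthest from a gene end. Other named examples (single regions within genes, NORAD, OIP5-AS1, small RNA genes and WT genes without a shared region) were chosen after their values were seen.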

Additional observations from a re-analysis of the deposited data

How the results depend on the processing

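The counts of shared WT regions (967), partners (944) and exclusive pairs (847) moved by over 1.5 times under 1 of 7 alternatives. With only regions of at least 100 bases in both lists, which leaves 738 WT and 1578 5xA regions, they were 596, 573 and 515. The lists themselves shrink there, so shared WT regions were 596 of 738 beside 967 of 1190 in the main setting. A reciprocal overlap of 50% gave 797 of each, with the WT list still at 1190. Ignoring strand changed none of them. Joining regions within 50 bases gave 880, 850 and 800, and counting regions within 50 bases as shared gave 988, 1032 and 678. Over the 7 the median extension of 5xA was 3 to 6 bases at the 5' edge and 2 to 4 at the 3' edge. The share of pairs wider with 5xA was 64.1% to 68.7%. Genes with a shared region numbered 543 to 607 over 4 alternatives. The position difference of 21.3 percentage points kept its direction in 8 of 8 alternatives and its exact p stayed under 0.05 in 7 of them. Among regions under 80 bases it was 7.29 points (Fisher's exact test, p = 0.622, with 73 regions left). With a reciprocal overlap of 50% it was 12.7 points (exact test, p = 0.00955) and with all regions of a gene counted 12.1 points (exact test, p = 0.00114). The alternative with all regions, which is among the 7, treats regions of the same gene as independent. Its p therefore adds no support. The alternatives on snaR-A copies and gene strand, and for the position difference those on all regions of a gene and on widths of 80 to under 120 and under 80 bases, were chosen after seeing the data. No paired analysis was possible because each list pools both replicates, and for the same reason no replicate could be left out. No stricter threshold of the authors could be applied, since the deposited scores are all 0. Depth behind each region is unknown.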
